A study of Mus musculus with 32 samples.

Results

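This account describes the 200 most abundant long noncoding RNA (lncRNA) genes of mouse prospermatogonia at E16.5, a day of late gestation. Members were chosen by their deposited gene type and by rank on mean TPM (the transcripts-per-million unit, a level per transcript length) over the 7 wildtype E16.5 libraries. Genes on chromosomes X and Y and the imprinted lncRNAs H19, Meg3, Rian, Mirg, Airn, Kcnq1ot1 and Peg13 were left out. Of 55536 annotated or counted genes, 9939 were typed as lncRNA, 9208 of those could be ranked after the exclusions, and 200 were kept. Because measured E16.5 wildtype levels chose the members, those levels, and every contrast with the E16.5 wildtype libraries, are given as descriptions without a test.

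Prospermatogonia are fetal male germ cells that pause in division before birth and later give rise to spermatogonia. Cells were sorted as GFP-positive from male embryos on a C57BL/6 background that carried an Oct4-EGFP transgene, and both parents of each litter were heterozygous for a Taf4b-deficiency allele. TAF4B is a germ cell enriched part of TFIID, the complex that helps RNA polymerase II start at core promoters. The groups were E14.5 Taf4b-wildtype (n = 4), E14.5 Taf4b-deficient (n = 4), E16.5 Taf4b-wildtype (n = 7), E16.5 Taf4b-heterozygous (n = 9) and E16.5 Taf4b-deficient (n = 8). All 5 groups shared the reporter and the sort, the labels do not say how many embryos made up a library, and no E14.5 heterozygous library was analysed here. Litters were nested in age, 4 at E14.5 and 6 others at E16.5, so that age cannot be told apart from litter and collection. P-values measure the spread between these libraries.

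Libraries held 28.3 to 44.1 M counts at E14.5 and 17.7 to 25.7 M counts at E16.5. Taf4b itself stood at 122 to 238 CPM (counts-per-million of all counts in a library) in E14.5 wildtype and 22.3 to 38.2 in deficient libraries. At E16.5 it stood at 130 to 315 CPM in wildtype, 54.9 to 172 in heterozygous and 47.7 to 128 in deficient libraries, so that heterozygous and deficient ranges overlapped. The 18 germ cell identity genes summed to 6961 to 9007 CPM in 31 of the 32 libraries. At E16.5 this sum was 7128 to 7744 CPM in deficient, 7605 to 9007 in heterozygous and 7997 to 8681 in wildtype libraries, so that every wildtype and 8 of 9 heterozygous libraries lay above every deficient one. E14.5 deficient 1 stood apart: its germ cell sum was 3966 CPM, its 10 interstitial markers summed to 4171 CPM against 5.26 to 63.4 in the other 7 E14.5 libraries, and its Leydig and Sertoli sums were 5530 and 1783 CPM. At E16.5 the macrophage markers summed to 10.3 to 27.0 CPM in deficient and 22.1 to 40.3 CPM in heterozygous libraries, and the Leydig markers to 172 to 1743 and 157 to 4257 CPM. In bulk RNA, fewer cells of a type and less RNA per cell cannot be told apart.

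A further difference ran through the E16.5 libraries and touches every genotype contrast at that age. Gm23935, annotated as a microRNA gene and not itself a member, stood over 40000 TPM in 13 libraries (47854 to 88635) and between 8688 and 23986 TPM in the other 11. All 8 deficient libraries were among the 13, with 3 of 7 wildtype (replicates 1, 3 and 7) and 2 of 9 heterozygous libraries (replicates 4 and 6). CT010467.1, annotated as a ribosomal RNA, moved with it, at 10933 to 19948 TPM against 7119 to 10034. The labels give no run or preparation that separates these libraries.

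lncRNAs are transcripts with no long open reading frame that act in the nucleus or cytoplasm or whose value to the cell lies in what is processed out of them. Small nucleolar RNA (snoRNA) host genes such as Gas5 and the Snhg genes carry, in their introns, the snoRNAs that guide modification of ribosomal RNA, and many of their spliced transcripts turn over quickly during translation. Others start close to a protein-coding gene on the opposite strand, and germ cells are known for a large number of lineage-restricted lncRNA genes. Of the 200 members, 90 carried a Gm number, 72 a Rik name and 10 an antisense name ending in os. In the GENCODE M39 annotation 191 members were typed as lncRNA, 2 (1.0%) as protein-coding and 7 were not found. Of the other lncRNA genes 0.189% were typed as protein-coding there. The deposited type thus does not settle for every member that it is noncoding.

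Promoters of 126 members were found in RefSeq (152 promoters, GRCm38.p6, 250 bases before to 50 after the start). Of these windows 41.4% held GGGCGG, the GC box, against 830 of 4376 promoters of other lncRNA genes and 35.7% of all 32851 promoters. CCAAT was found in 50.7%, against 36.4% and 37.4%. TATAAA was found in 22 of the 152, against 14.2% and 13.6%. All 3 motifs were searched on both strands as exact letters, and matches may overlap. These shares describe the windows, and a match is not a site. The windows of 5 members are shown because they belong to members at opposite ends of the results: Gas5 and Snhg15 fell from E14.5 to E16.5 in deficient cells, whereas 2310043M15Rik, Gm11681 and 4930556C24Rik stood at 2.88 CPM or less in every E14.5 library and were lower in deficient than heterozygous cells at E16.5. Capitals mark GGGCGG in the first 3 and TATAAA in the last 2, on either strand.
Gas5: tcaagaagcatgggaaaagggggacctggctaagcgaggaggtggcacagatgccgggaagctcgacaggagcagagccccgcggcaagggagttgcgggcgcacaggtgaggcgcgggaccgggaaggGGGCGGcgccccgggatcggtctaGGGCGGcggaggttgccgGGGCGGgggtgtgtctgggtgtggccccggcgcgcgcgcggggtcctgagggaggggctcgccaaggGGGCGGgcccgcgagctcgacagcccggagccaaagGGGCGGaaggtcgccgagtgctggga
Snhg15: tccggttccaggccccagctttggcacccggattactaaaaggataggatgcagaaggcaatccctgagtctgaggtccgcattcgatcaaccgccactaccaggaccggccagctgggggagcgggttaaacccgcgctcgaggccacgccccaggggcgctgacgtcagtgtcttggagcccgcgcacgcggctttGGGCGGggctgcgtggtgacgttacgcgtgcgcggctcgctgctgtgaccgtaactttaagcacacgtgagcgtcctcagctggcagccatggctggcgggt
2310043M15Rik: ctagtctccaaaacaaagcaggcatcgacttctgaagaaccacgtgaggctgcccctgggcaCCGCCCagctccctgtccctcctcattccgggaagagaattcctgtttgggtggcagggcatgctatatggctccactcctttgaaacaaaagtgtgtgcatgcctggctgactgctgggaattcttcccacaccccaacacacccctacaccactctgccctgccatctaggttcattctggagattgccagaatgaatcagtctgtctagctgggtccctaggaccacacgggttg
Gm11681: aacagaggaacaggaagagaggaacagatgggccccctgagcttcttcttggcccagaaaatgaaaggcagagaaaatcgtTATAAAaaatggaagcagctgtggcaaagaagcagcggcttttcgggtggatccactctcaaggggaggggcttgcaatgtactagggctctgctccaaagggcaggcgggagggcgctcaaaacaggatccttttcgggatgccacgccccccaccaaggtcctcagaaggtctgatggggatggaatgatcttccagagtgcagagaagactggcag
4930556C24Rik: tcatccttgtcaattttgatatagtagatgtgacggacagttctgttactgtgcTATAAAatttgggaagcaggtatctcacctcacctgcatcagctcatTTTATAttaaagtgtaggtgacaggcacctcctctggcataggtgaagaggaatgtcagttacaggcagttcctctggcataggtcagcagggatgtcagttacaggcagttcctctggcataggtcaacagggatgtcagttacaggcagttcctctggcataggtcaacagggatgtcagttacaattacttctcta
The Gas5 window (chr1:161034351-161034650, plus strand) held 5 matches, 4 of them before the RefSeq start. The deposited start of Gas5 lies 179 bases before the RefSeq start, and all 5 matches lie after it. Distances below are from the RefSeq start too. Snhg15 (chr11:6528711-6529010, minus strand) had 1 match beginning 52 bases before the start, and 2310043M15Rik (chr16:93794852-93795151, minus strand) had 1 on the opposite strand, 188 bases before it. In Gm11681 (chr11:112798959-112799258, minus strand) the only TATAAA began 169 bases before the start. In 4930556C24Rik (chr16:85818961-85819260, plus strand) the 2 matches began 196 and 149 bases before it, the first on the same strand as the gene and the other on the opposite strand.

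At E16.5 the levels were steep at the top and flat below. Mean wildtype TPM ran from 1339 to 8.95 with a median of 15.7, and 10 members exceeded 100 TPM, 29 exceeded 50 and 129 were under 20. The coefficient of variation over the 7 wildtype libraries had a median of 21.6% (5.30% to 122%). Below the top ranks, neighbours differed by far less than their spread: ranks 199 and 200, Gm43101 at 9.01 ± 2.46 TPM (SD, n = 7) and 1110002L01Rik at 8.95 ± 0.475, sat beside 8030451A03Rik at 8.89 ± 2.22 and BC051226 at 8.86 ± 4.07 just outside. Ranking by the wildtype median kept 195 of the 200, and ranking by the heterozygous mean kept 187.

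**Figure D1:**
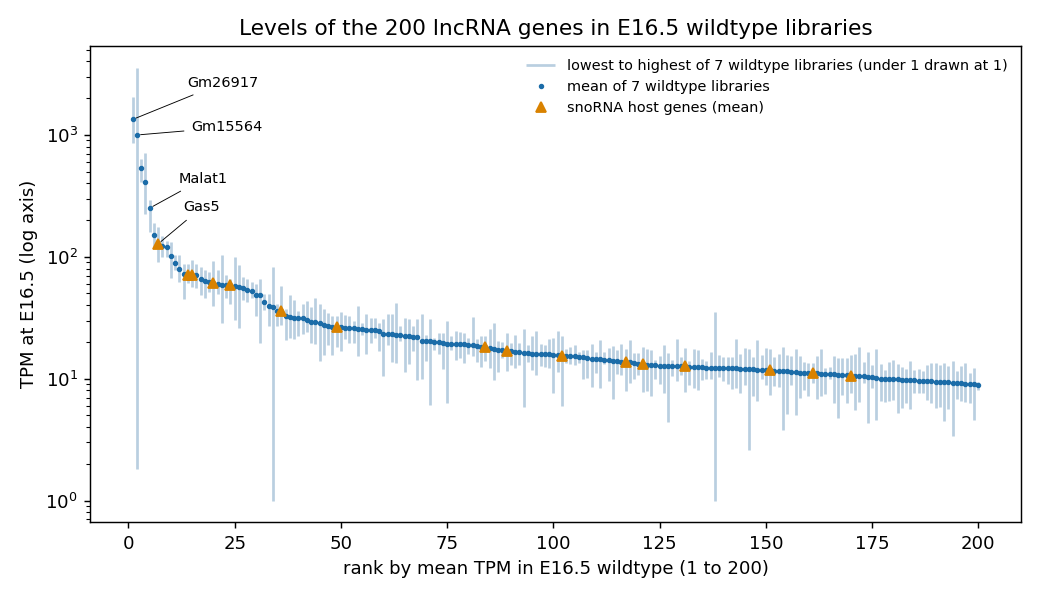
Mean TPM (log axis) of the 200 lncRNA genes against their rank over 7 E16.5 wildtype libraries, with a line from the lowest to the highest library (values under 1 TPM drawn at 1) and snoRNA host genes as triangles. Means fall from 1339 to 8.95 TPM, and Gm15564 at rank 2 spans 1.80 to 3564 TPM, the lowest in a library where its counts were not low.

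Several of the 10 highest were not typical lncRNAs. Gm26917 (rank 1, chromosome 17) and Gm42418 (rank 4, less than 1 kb away) are known to share sequence with ribosomal RNA, and Gm26917 stood at 865, 1069 and 2046 TPM (lowest, median and highest wildtype library). Gm42418 had 222, 363 and 709 TPM but 0 counts in the wildtype count columns. Gm15564 (rank 2, chromosome 16) ranged from 1.80 to 3564 TPM with a median of 574, the least stable of the 10 in TPM. Its counts split by the Gm23935 level with no overlap, at 164 to 355 CPM in the 11 libraries with low Gm23935 and 1078 to 2377 in the 13 others. The 1.80 TPM was in wildtype replicate 1, a library with high Gm23935. TPM and counts of Gm15564 thus disagree there, as they do in heterozygous replicate 9, at 1.68 TPM. The low end of its TPM range is not a measure of its level. Gm10076 (rank 3), at 413, 546 and 629 TPM, was even across libraries.

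Malat1 (rank 5), a nuclear-retained RNA of nuclear speckles, stood at 161, 272 and 290 TPM. Gas5 (rank 7), a snoRNA host linked to growth arrest, stood at 90.0, 124 and 174 TPM. The remaining top members had no role that could be named. Gm15389 (rank 6) stood at 119, 154 and 190 TPM, and 1700054O05Rik (rank 9) at 100.5, 117 and 135 TPM. Gm49207 (rank 8), a gene of 279 bases, stood at 98.9, 123 and 148 TPM. Gm17494 (rank 10) stood at 66.4, 96.2 and 132 TPM. From rank 6 to rank 10 the library ranges overlapped between neighbours.

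Members summed to 7227 to 8560 TPM in the 11 libraries with low Gm23935 and to 7335 to 13689 TPM in the 13 others. The 7335 TPM was wildtype replicate 1, where the TPM of Gm15564 disagrees with its counts. Without the 3 members Gm26917, Gm42418 and Gm15564, the other 197 summed to 5556 to 6221 TPM in the 11 and to 4589 to 5749 TPM in the 13, mostly lower but overlapping. Within the 13, the 8 deficient libraries (4875 to 5749) overlapped the 3 wildtype (4589 to 5294) and the 2 heterozygous ones (5078 and 5500). The median of the members' mean TPM was 15.7 in wildtype, 15.5 in heterozygous and 13.5 in deficient libraries.

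**Figure D2:**
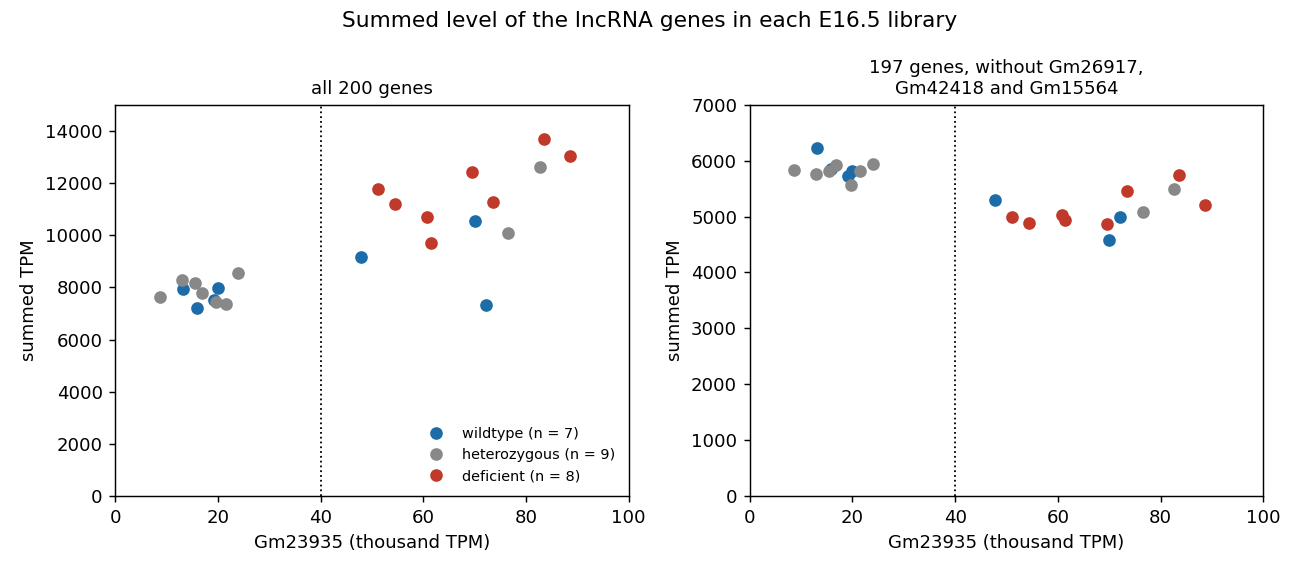
Summed TPM of all 200 genes (left) and of 197 genes without Gm26917, Gm42418 and Gm15564 (right) in each E16.5 library, against Gm23935 TPM divided by 1000, with the dotted line at 40. Each point is 1 library; on the right the libraries with low Gm23935 lie at 5556 to 6221 TPM and the others at 4589 to 5749, with the genotypes overlapping among the latter.

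By position, 54 members (27.0%) started within 1000 bp of the start of a protein-coding gene on the opposite strand, against 1246 of 9008 other lncRNA genes (13.8%). Members overlapped a protein-coding gene body on the opposite strand in 30.5% (others 37.2%) and on the same strand in 6.5% (others 6.74%). No coding gene body was overlapped by 127 members. Since the counting setting for strand is not given in the sources used here, reads of overlapping genes cannot be told apart. Chromosome 2 held 20 members, chromosome 13 held 19, of which 6 lay between 60 and 68 Mb, and chromosome 11 held 17.

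The comparison that the choice of members leaves free at E16.5 is deficient against heterozygous. Of 195 members tested, 51 differed, 15 higher and 36 lower in deficient cells (edgeR quasi-likelihood test, Benjamini-Hochberg adjusted p under 0.05 over 24382 genes). That is 26.2% of the members, against 15.7% of all genes tested (7.8% higher and 7.93% lower) and 268 of 3026 other lncRNA genes (8.86%, 81 higher and 187 lower). Members were chosen for a high level, and a change is easier to call in genes with more reads. These shares are not matched for level, and their difference was not tested. Median log2 fold changes were -0.12 for members, -0.10 for other lncRNA genes and -0.01 for all genes. Lower calls fell by 0.40 to 1.50 on the log2 scale with a median of 0.72, and 7 reached 1. Higher calls rose by 0.37 to 1.74 with a median of 0.63, and 1 reached 1. Too few counts to be tested were found for 5 members: Gm42418, Snhg3, Gm26619, Gm48228 and Gm47428, named for that reason after their values were seen.

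Litter was partly aligned with genotype in this comparison, since 3 litters (I, F and J) held both heterozygous and deficient libraries, and the Gm23935 level almost wholly, as given above. With litter as a covariate 5 members were called, 3 higher and 2 lower, against 1.22% of all genes (0.664% higher and 0.554% lower). Within the 3 shared litters alone 7 were called, 3 higher and 4 lower. The share over all genes is not given for that fit, so the 7 cannot be set against a background. With log2 Gm23935 TPM as a covariate 1 was called against 0.221% of all genes. The fits with litter or Gm23935 as a covariate hold the wildtype libraries, whose levels chose the members and here enter the estimates. Their calls and adjusted p, here and below, are thus descriptions. The fit within the 3 shared litters holds no wildtype library. Among the 13 libraries with high Gm23935 alone, where 2 heterozygous libraries remain, 0 members were called by edgeR (0.0% of all genes). There 9 of 196 members had an unadjusted p under 0.05, as did 1364 of 26923 genes. All 51 members kept their sign in each of these 4 fits. The fits reuse all or part of the libraries on which the 51 were called, so kept signs and medians are descriptions that support nothing. With litter, with Gm23935 and among the libraries with high Gm23935, their median log2 change was -0.58, -0.53 and -0.52 for the 36 lower members and 0.47, 0.50 and 0.48 for the 15 higher ones. Heterozygous replicates 4 and 6 both lay below the median of the other 7 in 20 of the 36 lower members, and both above it in 8 of the 15 higher ones. These are 55.6% and 53.3%, against 45.1% and 12.3% of the 195 members tested and 27.0% and 27.7% of all genes tested. Germ cell and macrophage marker sums were mostly lower in the deficient libraries, as given above. The part of marker levels in these calls was not tested, and that of the Gm23935 level not beyond these fits. Leaving out deficient replicate 7 reduced the calls to 33 (6 higher and 27 lower), given without a share over all genes.

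**Figure D3:**
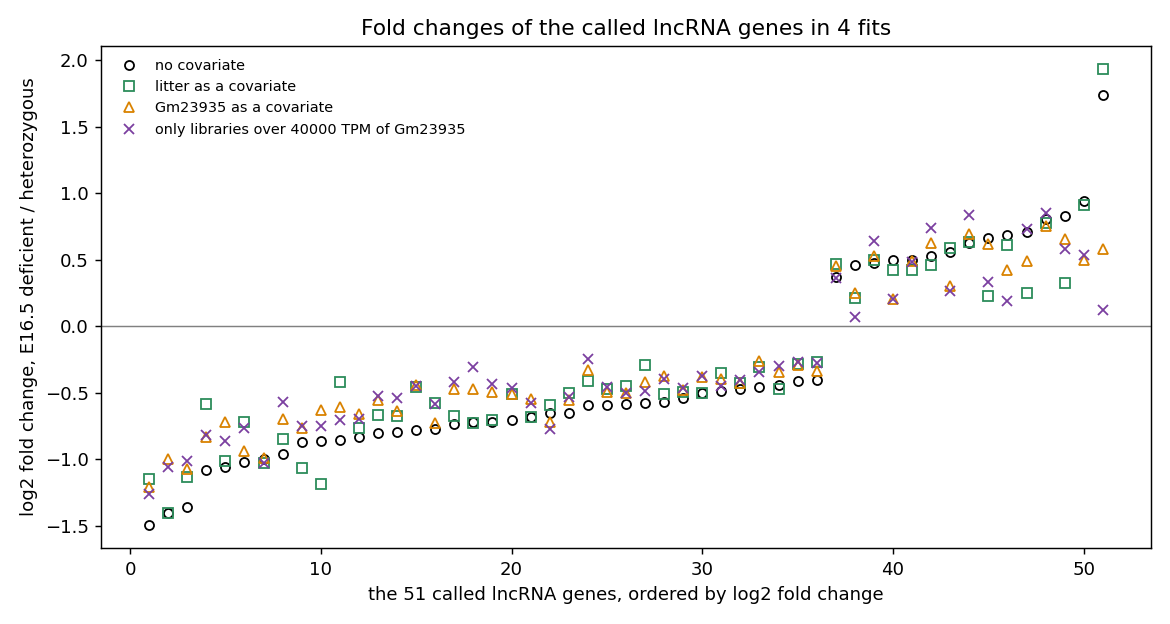
Log2 fold change of deficient over heterozygous E16.5 libraries for the 51 called lncRNA genes, ordered by the fit with no covariate, with 3 further fits overlaid. Every point stays on its side of 0, in fits that reuse libraries on which the genes were called. Gm15564, the rightmost gene, drops from 1.74 to 0.12 among libraries with high Gm23935.

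Among members lower in deficient cells, 2310043M15Rik (chromosome 16, opposite Dop1b) changed most. It stood at 3.99, 13.9 and 21.2 CPM (lowest, median, highest; TMM-scaled) in deficient and at 21.1, 37.5 and 47.2 CPM in heterozygous libraries. The ranges met only at their edges, and the log2 fold change was -1.50 ± 0.28 (SE, adjusted p = 0.00278 by edgeR). With litter as a covariate it was -1.15 (adjusted p = 0.0762 by edgeR), within the 3 shared litters -1.25 (adjusted p = 0.0257), and -1.26 in the libraries with high Gm23935. Wildtype libraries stood at 20.1, 50.6 and 55.2 CPM.

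Gm11681 (chromosome 11) stood at 2.57, 4.70 and 7.64 CPM in deficient and 7.77, 9.25 and 12.8 CPM in heterozygous libraries. The groups did not overlap, and the log2 fold change was -1.02 ± 0.19 (adjusted p = 0.0031 by edgeR, 0.0898 with litter). 4930556C24Rik stood at 0.750, 4.45 and 5.55 CPM in deficient and 4.16, 10.5 and 14.49 CPM in heterozygous libraries, with heterozygous replicate 6 the lowest of its group. Its log2 fold change was -1.41 ± 0.31 (adjusted p = 0.00663 by edgeR). 5033426E14Rik (-1.36 ± 0.40), 1500015A07Rik (-1.08 ± 0.21) and Gm49420 (-1.06 ± 0.34) were the other 3 of the 6 largest decreases. No function of these 6 genes was established enough to name.

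Gt(ROSA)26Sor had the smallest adjusted p of the members, and it was named after its values were seen. It is the ubiquitously transcribed noncoding gene whose locus serves as the standard site for transgenes in mice. Deficient libraries stood at 26.4, 28.8 and 36.4 CPM and heterozygous libraries at 38.6, 45.7 and 49.0 CPM, with no overlap. Heterozygous replicates 4 and 6, at 41.7 and 43.2 CPM, lay within the range of the other 7 (38.6 to 49.0). The log2 fold change was -0.58 ± 0.09 (adjusted p = 0.00068 by edgeR), and it was the only member called both with litter and with Gm23935 as a covariate (adjusted p = 0.0344 with litter and 0.0423 with Gm23935). Within the 3 shared litters it was not called (-0.46, adjusted p = 0.0867 by edgeR), nor among the libraries with high Gm23935 (-0.51, adjusted p = 0.863). Wildtype libraries stood at 35.9, 44.7 and 50.8 CPM.

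Among members higher in deficient cells, the abundant Gm26917 stood at 5269, 6039 and 7206 CPM in deficient and 2385, 2784 and 4625 CPM in heterozygous libraries. The groups did not overlap, and heterozygous replicates 4 and 6, at 3835 and 4625 CPM, were the highest of theirs. The log2 fold change was 0.94 ± 0.16 (adjusted p = 0.00157 by edgeR, 0.0426 with litter, 0.0311 within the 3 shared litters and 0.12 with Gm23935). Gm15564 changed by 1.74 ± 0.53 (adjusted p = 0.0281 by edgeR), but by 0.12 among the libraries with high Gm23935, and its genotype ranges overlapped (1713 to 2377 against 164 to 2080 CPM). Malat1 changed by 0.37 ± 0.12 (adjusted p = 0.0317 by edgeR), from 360 to 593 CPM in heterozygous to 516 to 761 CPM in deficient libraries, which overlapped.

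Sp3os, transcribed opposite Sp3, which encodes a transcription factor of GC boxes, stood at 7.58, 12.8 and 16.9 CPM in deficient libraries. Heterozygous libraries stood at 5.11, 7.34 and 8.52 CPM, and the groups overlapped between 7.58 and 8.52 CPM. The log2 fold change was 0.80 ± 0.16 (adjusted p = 0.00354 by edgeR, 0.0413 with litter, 0.0573 within the 3 shared litters and 0.102 with Gm23935), and heterozygous replicates 4 and 6 stood at 5.85 and 7.92 CPM. Gm10745 (0.83 ± 0.23), A730017L22Rik (0.71 ± 0.24) and Gm12940 (0.69 ± 0.22) completed the 6 largest increases. A730017L22Rik shares its strand with 4930402H24Rik and Gm12940 with Sfpq, so reads of those genes cannot be told apart.

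**Figure D4:**
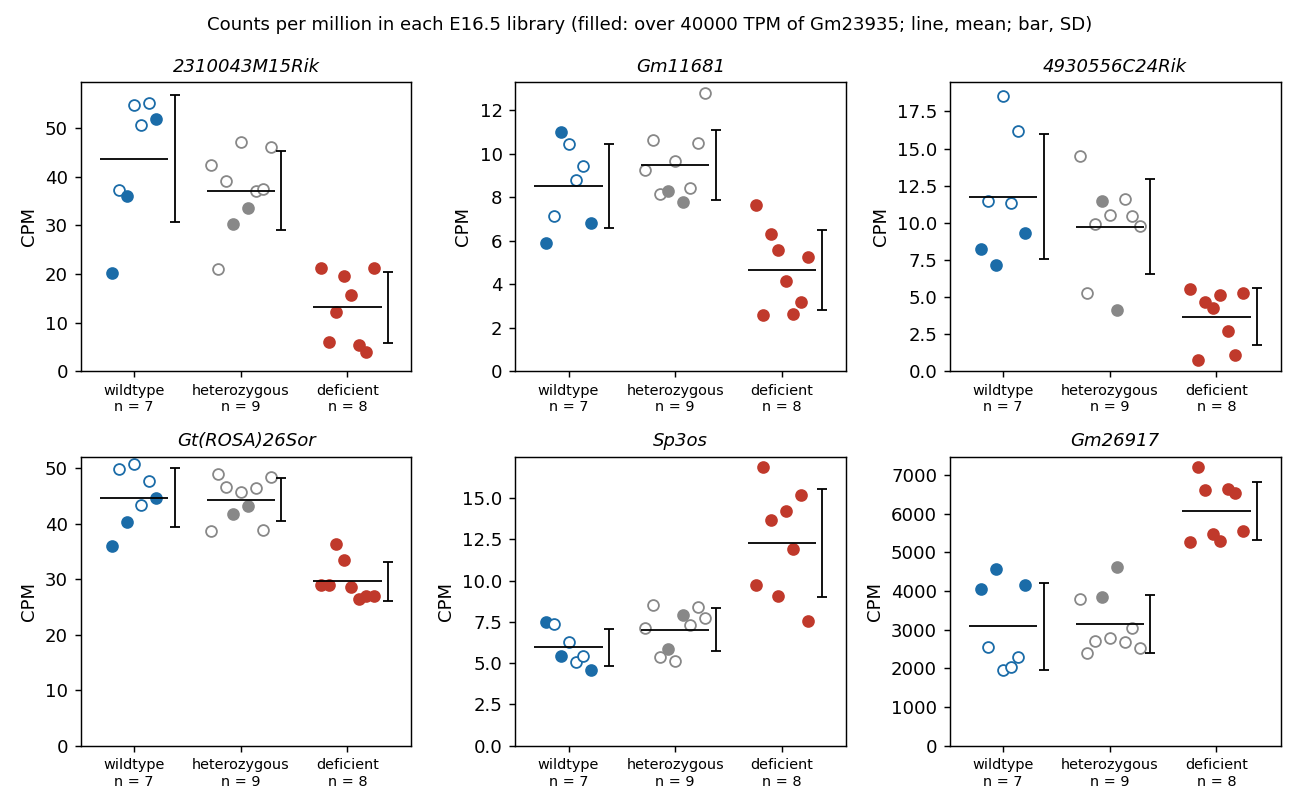
CPM (TMM-scaled) of 6 lncRNA genes in each E16.5 library by genotype, with the mean as a line and the SD as a bar; filled points have over 40000 TPM of Gm23935. Gt(ROSA)26Sor lies at 26.4 to 36.4 CPM in deficient and 38.6 to 49.0 in heterozygous libraries, and the filled heterozygous points of 2310043M15Rik lie at 30.2 and 33.6 CPM.

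The snoRNA host genes were looked at as a list. Of 24 listed, 16 were members and 15 could be tested, of which 0 were called by edgeR at E16.5 in deficient against heterozygous cells, with a median log2 change of 0.11. The share called was 15.7% over all genes and 26.2% over the members, and with 15 genes no difference from these shares was tested. Gas5 stood at 30.8, 78.5 and 145 CPM in deficient and 68.0, 103 and 161 CPM in heterozygous libraries (-0.36 ± 0.22, adjusted p = 0.253 by edgeR). Snhg9 was nearest the threshold, at 0.47 ± 0.18 (adjusted p = 0.0675 by edgeR). The 3 pluripotency-associated members Platr14, Lncenc1 and Platr27 and the growth-related 2900097C17Rik (Norad) and Oip5os1 (Cyrano) were not called either.

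Heterozygous and wildtype E16.5 cells are set side by side without a test. The median log2 difference of heterozygous from wildtype was 0.02 over the 195 members, and that of deficient from wildtype was -0.13. For 2310043M15Rik the 2 differences were -0.23 and -1.73, for Gt(ROSA)26Sor -0.01 and -0.59, and for Sp3os 0.24 and 1.05. For Gm11681 they were 0.16 and -0.87. Gm10745 differed in order: heterozygous libraries were lower than wildtype by 1.11 and deficient ones lower by 0.27, with wildtype at 5.80 to 14.2 CPM and heterozygous at 3.28 to 7.28.

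At E14.5 no member was called between deficient and wildtype cells. Of 172 members tested, 0 passed an adjusted p of 0.05 in edgeR (0.0% of 18475 genes), and 4 had an unadjusted p under 0.05, as did 778 of all genes. DESeq2's Wald test also called 0 members, and the result was the same without deficient replicate 1. The 4 were named after their values were seen. Lncenc1, an RNA of pluripotent stem cells, stood at 20.2, 12.6, 14.2 and 17.5 CPM in wildtype and 3.43, 7.51, 11.3 and 7.22 CPM in deficient libraries. These did not overlap, but the adjusted p was 0.909 (log2 fold change -1.13 ± 0.36, edgeR). Rab10os (-0.59), Gm4316 (-1.93) and AA465934 (1.12) had the same adjusted p.

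Several genes called at E16.5 were too low at E14.5 to be tested: Gm11681, 2310043M15Rik, 4930556C24Rik, 5033426E14Rik and Gm49420 did not pass the filter on low counts there. Gt(ROSA)26Sor stood at 13.3, 6.98, 9.93 and 10.6 CPM in wildtype and 17.2, 9.37, 12.4 and 10.9 CPM in deficient E14.5 libraries, which overlapped (log2 0.29 ± 0.29). Sp3os stood at 5.89, 10.4, 7.09 and 10.0 against 10.7, 10.6, 16.9 and 10.3 CPM (log2 0.54 ± 0.29, adjusted p = 0.909 by edgeR).

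Of 194 members listed in the authors' deposited E14.5 table, 1 had an adjusted p under 0.05 (1.11% of all its genes), 2010001K21Rik with a deposited log2 fold change of 5.45. In the deposited counts it stood at 0.0857, 0.0703, 4.26 and 2.61 CPM in wildtype replicates 1 to 4 and at 4.57, 3.27, 1.99 and 4.99 CPM in the deficient ones. The wildtype libraries thus differed among themselves, and the edgeR fit over all 8 gave 1.08 ± 1.10 (adjusted p = 0.949 by edgeR).

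From E14.5 to E16.5 most members rose in deficient cells, a contrast that uses no wildtype library in its means. Of 196 tested, 162 were called, 136 higher and 26 lower at E16.5 (82.7%), against 68.9% of all 27099 genes (40.2% higher and 28.7% lower; edgeR, adjusted p under 0.05). The median log2 change was 1.25 for members, 1.69 for 3816 other lncRNA genes and 0.34 for all genes. At E14.5 alone 1392 other lncRNA genes passed the filter, so others could enter here through their E16.5 level alone. The medians of members and other lncRNA genes are therefore not compared. Higher calls included 111 of at least 1 and 37 of at least 3 on the log2 scale. Members were chosen for a high level at E16.5, so that the count of rises is a description and no independent finding. In wildtype cells, given without a test, 149 of the 196 had a higher mean CPM at E16.5 and the median change was 1.49, against 0.54 for all genes. The median of the members' mean CPM, all 32 libraries scaled together, was 3.18 in E14.5 wildtype, 3.14 in E14.5 deficient, 9.93 in E16.5 wildtype, 9.68 in heterozygous and 8.72 in deficient libraries.

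TPM was not compared between ages. The ratio of count to TPM of a gene was taken relative to the median ratio of each library. At E14.5 it was the same in all 8 libraries for 11612 genes with at least 50 counts in each (SD of its log2 0.0 to 6 decimals). At E16.5 the SD of its log2 had a median of 0.0999 and a highest value of 2.73 over 12122 genes. Exon lengths came from GENCODE M39 (GRCm39), which was used for lengths and for the gene types given above, and not for positions. Per base of exon, the E14.5 ratio was 12.2 times higher for genes under 1000 bases than for genes of at least 1000 and under 10000 bases. In the E16.5 table it was 1.49 times higher. For genes of 10000 bases and more it was 0.355 and 0.625 times that of the middle class. Of the members 25 had under 1000 bases of exon, 152 were in the middle class, 16 had 10000 or more and 7 had no entry. The TPM of the tables are thus on different scales, and a ranking by E14.5 TPM, which kept 67 members, is not a measure of their level there.

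The 5 largest rises went from a few reads to a clear level. 5033426E14Rik had 0 counts in all 4 deficient E14.5 libraries and 0.390, 1.19 and 5.57 CPM (lowest, median, highest) at E16.5, at least 98.1-fold higher (against 3 counts over the E14.5 group). Gm11681 had 1 count over the 4 libraries and 2.36, 4.31 and 6.82 CPM at E16.5, a ratio of 617 with a counting interval of 110 to 24396. Gm11981 had 7 counts and 1.28, 4.26 and 12.4 CPM, a ratio of 113 (54.5 to 281). The ranges of these genes did not touch between ages, and intervals cover counting error only.

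Gm567 stood at 0.271, 0, 0 and 0.129 CPM in deficient E14.5 libraries and at 3.21, 10.5 and 24.0 CPM at E16.5. Gm40538 stood at 0.221, 0.239, 0.149 and 0.0430 CPM and then at 4.73, 8.99 and 22.8 CPM. Wildtype E14.5 replicate 1 carried more of both than the other 3 wildtype libraries, at 0.798 CPM of Gm567 and 0.712 CPM of Gm40538. Among the most abundant members, Gm15389 (log2 5.31 ± 0.60), 1700054O05Rik (5.37 ± 0.63) and Gm10076 (1.58 ± 0.21) rose, whereas Gm17494 did not pass the test (0.15 ± 0.25, adjusted p = 0.605 by edgeR).

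Among the 15 snoRNA host genes tested, 8 were lower and 1 was higher at E16.5 in deficient cells, with a median log2 change of -0.58. Over all genes 28.7% were lower and 40.2% higher, with a median of 0.34, and the difference of the list from these was not tested. Snhg16 stood at 9.92, 14.54, 24.8 and 16.7 CPM in deficient E14.5 libraries and at 2.35, 6.02 and 8.41 CPM (lowest, median, highest) at E16.5. The ages did not overlap (log2 -1.62 ± 0.27, adjusted p = 4.14e-06 by edgeR). Snhg17 fell from 34.4, 62.4, 82.5 and 50.5 CPM to 10.6, 20.9 and 23.9 CPM (-1.58 ± 0.20), and Snhg15 from 24.3, 46.9, 87.6 and 45.5 CPM to 15.1, 20.1 and 25.4 CPM (-1.33 ± 0.22), the latter with 1 overlapping library.

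Snhg20 (-0.98 ± 0.20), Dancr (-0.92 ± 0.24), Gas5 (-0.87 ± 0.28), Snhg5 (-0.62 ± 0.23) and Snhg6 (-0.58 ± 0.16) were the other 5 lower hosts. Gas5 stood at 178, 72.1, 207 and 102 CPM at E14.5 and at 28.1, 71.3 and 133 CPM at E16.5, which overlapped. Epb41l4aos was the 1 higher host, from 11.7, 9.40, 14.97 and 10.2 CPM to 23.2, 26.5 and 30.4 CPM without overlap (1.20 ± 0.18). Snhg1 (-0.29 ± 0.20), Zfas1 (-0.49 ± 0.23), Snhg8 (-0.24 ± 0.28), Snhg9 (-0.31 ± 0.25) and Snhg10 (0.10 ± 0.26) did not pass the test. In wildtype cells, without a test, Snhg16, Snhg17 and Snhg15 changed by -2.51, -2.26 and -1.84.

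Snhg18 turned on 1 library. It stood at 30.9 CPM in E14.5 deficient 1, the library with the high interstitial markers, and at 1.71, 1.64 and 0.602 CPM in the other 3. The log2 change with age was -0.05 ± 0.52 with that library and 2.67 ± 0.36 without it (adjusted p = 1.55e-07 by edgeR). Without it 7 of the 15 hosts were lower and 2 higher, with a median of -0.50, and Snhg5 was no longer called (-0.45 ± 0.24, adjusted p = 0.0932 by edgeR). Leaving it out also moved the median of all genes from 0.34 to 0.67. Malat1, at 792 CPM in that library against 165 to 230 in the other 3, rose by 0.75 ± 0.27 with it and by 1.57 ± 0.19 without it. Over all 196 members 132 were then higher and 24 lower, against 12580 and 7327 of 28054 genes. Its marker sums move with these values, and their part in them was not tested.

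**Figure D5:**
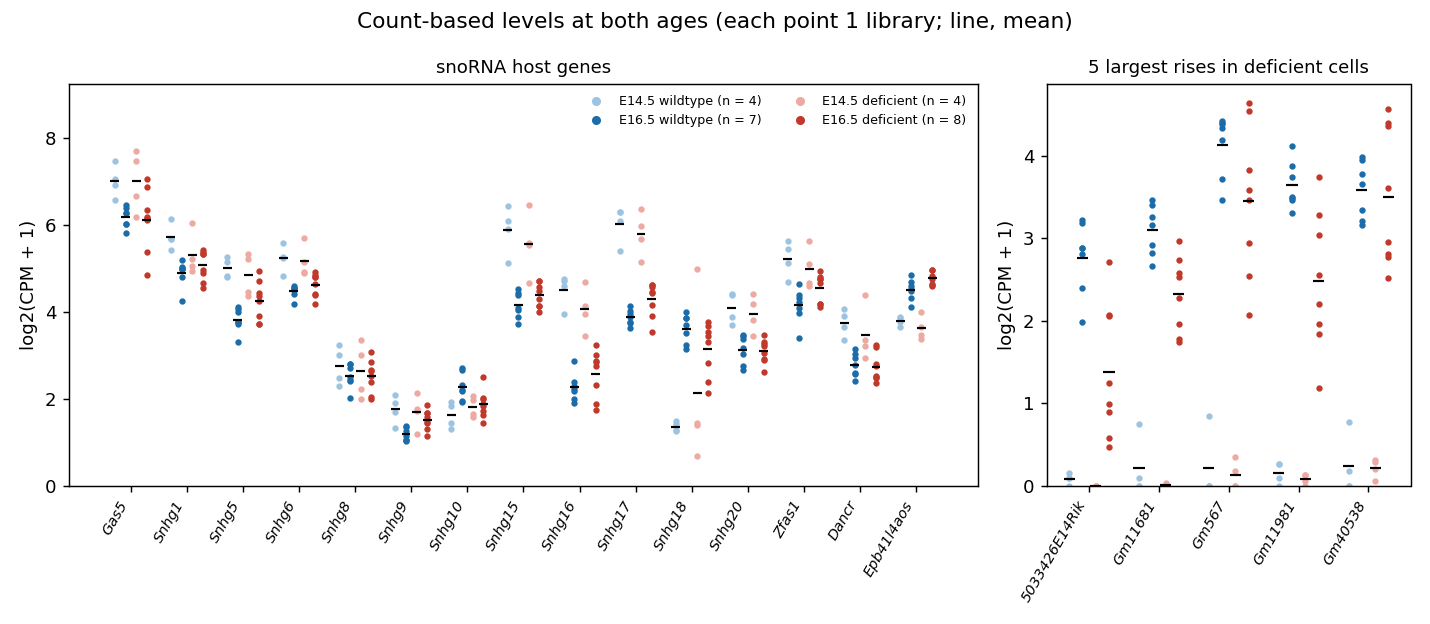
Log2(CPM + 1), all 32 libraries scaled together, of 15 snoRNA host genes (left) and of the 5 largest rises in deficient cells (right), in wildtype and deficient libraries of both ages; each point is 1 library and the line the mean. Snhg15, Snhg16 and Snhg17 lie lower at E16.5 in both genotypes, 1 deficient E14.5 library holds Snhg18 at 30.9 CPM, and the genes on the right lie under 1 CPM at E14.5.

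The largest decrease of any member was in Gm14230, which starts beside Tgif2. It stood at 17.6, 39.4, 40.8 and 40.2 CPM in deficient E14.5 libraries and 8.07, 10.2 and 12.05 CPM at E16.5 (-1.80 ± 0.22, adjusted p = 3.98e-08 by edgeR). B020010K11Rik, at 1.55 to 3.12 CPM at E14.5 and 0.509 to 1.34 at E16.5, was the other of the 5 largest (-1.33 ± 0.28). Gas5, 2900097C17Rik (-0.32 ± 0.13) and Oip5os1 (-0.37 ± 0.11), the 3 members of the growth-related list of 14, were all lower, and 2900097C17Rik was not called without E14.5 deficient 1 (-0.17 ± 0.13, adjusted p = 0.26 by edgeR). Of the pluripotency-associated members, Lncenc1 (1.26 ± 0.23) and Platr14 (0.57 ± 0.19) rose and Platr27 did not pass the test (0.33 ± 0.23). None of the 18 listed microRNA host genes or the 24 Hox and developmental antisense lncRNAs was a member. The microRNA host list holds Mirg and Meg3, which the choice of members left out beforehand. It does not hold Mir670hg, a microRNA host gene by name, which was a member.

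The genotype calls at E16.5 were set beside the change with age in wildtype cells, which shares no library with the compared groups but rests on the E16.5 wildtype levels that chose the members. Values are log2 changes from E14.5 to E16.5 minus the median of all genes, given as a description that supports nothing. The 36 members lower in deficient than heterozygous cells had a median of 2.46, and 30 of them exceeded 1. The 15 higher members had a median of -0.52, with 2 above 1 and 7 below -1. The 144 tested members that were not called had a median of 0.80, with 63 above 1 and 19 below -1. Such values are not given for all genes called at E16.5, so they are not shown to be particular to the members. Among the lower members 2310043M15Rik (4.98), Gm49420 (6.88) and 4930556C24Rik (6.43) lay far above 0, while the higher members Sp3os (-1.61) and A730017L22Rik (-1.51) lay below it. Gm10745, higher in deficient cells, had 4.53, and 4930461G14Rik, lower and named after its values were seen, had -1.25. Between ages in deficient cells, which share the E16.5 deficient libraries, 9 of the 15 higher members were called higher and 4 lower. Of the 36 lower members 33 were called higher and 1 lower. Over all genes tested between ages 40.2% were called higher and 28.7% lower, and over the 196 members 136 and 26.

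Members that start beside a coding gene were compared with it. At E16.5, 9 of the 54 such members were called in deficient against heterozygous cells, and the coding partner was called in 2 of these 9. The share called over all genes was 15.7%, so both counts lie near the background. The 2 pairs are given as values. Gt(ROSA)26Sor was lower (-0.58) and Setd5, a chromatin regulator gene starting 32 bp away, higher (0.69, adjusted p = 0.00266 by edgeR). Gm49066 was lower (-0.59) and Ptk2, the gene of focal adhesion kinase, higher (0.31, adjusted p = 0.0418 by edgeR). Between ages in deficient cells 38 were called, the partner was called in 26 of these, and in 4 of the 26 the direction was the same. Over all genes 68.9% were called, so the count of partners called lies near the background, and the members' directions are set in part by their choice for high E16.5 levels.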

How the data were processed

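RNA was measured in 32 libraries of sorted male germ cells, and all were used. The authors deposited gene counts without normalization and, per the submitters' processing notes, used Trim Galore 0.5.0, FastQC 0.11.5, HISAT2 2.1.0, SAMtools 1.9, StringTie 1.3.3b, featureCounts of Subread 1.6.2 and DESeq2 with GRCm38. Annotation release, strand setting and model are not given in the sources used here. The authors' deposited TPM are scaled per library, per the file headers, so 1 abundant RNA takes TPM from all others. The authors' deposited tables hold log2 fold changes and adjusted p-values, per the file headers, and the submitters' processing notes list DESeq2. Which groups each table compares is not given in the sources used here, so calls of the E16.5 table, which may rest on the wildtype libraries that chose the members, are not reported.

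Counts were tested over all genes with edgeR 4.0.16 (R 4.3.3): TMM factors, filterByExpr, the quasi-likelihood test and Benjamini-Hochberg adjustment at 0.05. One fit held the 24 E16.5 libraries, another the 8 E14.5 libraries and the last all 32 for age. Overlaps, lists and figures were computed with Python 3.11.15, pandas 2.3.3 and matplotlib 3.10.9. The fit was tested on simulated data. Alternatives used limma 3.58.1 on log2(TPM + 1) or log2(TPM + 0.1), DESeq2 1.42.0, other filters, litter, the Gm23935 level and leaving out each library; both Gm23935 settings were chosen after seeing the data.

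Named genes were the 10 highest, the 6 largest called changes each way between genotypes at E16.5, the 5 largest each way between ages, members of the lncRNA lists and the neighbours of rank 200. The members and lists were chosen with earlier results of these data known. Total counts of 17.7 to 44.1 M counts per library limit the precision for genes of few reads. Intervals are exact 95% intervals for a ratio of counts.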

Additional observations from a re-analysis of the deposited data

Results flagged for a closer look

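Among 122 groups of 4 to 10 libraries examined for the named members, 10 had a highest or lowest library whose gap to its neighbour, as a share of the group's range, passed Dixon's 95% critical value. Chance gives about 1 in 20. Values are CPM, scaled within each age.

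The first 7 were from E14.5. Gm15564 in wildtype replicate 2 was low, at 99.4 against 1094 to 1516 CPM in the other 3 (gap share 0.880). Its Gm23935, compared within E14.5 only, was low too, at 33.9 against 842 to 1208 TPM. Deficient replicates 3 and 1 had 82.3 and 280 TPM of Gm23935 and 192 and 352 CPM of Gm15564. Deficient replicates 4 and 2 had 813 and 990 TPM, and 1093 and 1363 CPM. The part of the Gm23935 level in this was not tested. Gm10076 in wildtype replicate 4 was high, at 36.8 against 21.3 to 22.4 CPM (0.906). Sp3os in deficient replicate 3 was high, at 16.9 against 10.3 to 10.7 CPM (0.928). Deficient replicate 1, the library with high interstitial, Leydig and Sertoli markers, was low in Gm49207 at 0.715 against 0.907 to 0.942 CPM (0.852). It was also low in Gm14230, at 15.1 against 29.1 to 30.3 CPM (0.940), and high in 1700054O05Rik, at 1.56 against 0.383 to 0.442 CPM (0.932). Wildtype replicate 1, of the same litter A, was high in 1700054O05Rik too, at 5.10 against 0.0613 to 0.423 CPM (0.832).

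The other 3 were all E16.5 wildtype replicate 1, which shares its litter with deficient replicates 5 to 8 and has over 40000 TPM of Gm23935. A730017L22Rik stood at 6.66 against 2.33 to 3.25 CPM in the other 6 (0.707), 2310043M15Rik at 20.1 against 36.1 to 55.2 CPM (0.575) and 1500015A07Rik at 5.26 against 12.7 to 18.3 CPM (0.692). For these 3 genes the library lay on the side on which deficient libraries differed from heterozygous ones. The part of litter and of Gm23935 in this was not tested.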

How the results depend on the processing

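The 51 members called between deficient and heterozygous E16.5 libraries fell to 5 with litter as a covariate, to 7 within litters that held both genotypes (3 higher and 4 lower), to 1 with the Gm23935 level as a covariate and to 0 among libraries with over 40000 TPM of Gm23935, a fit with fewer libraries. The 7 included 2310043M15Rik, 4930556C24Rik, Gm26917 and Malat1. The litter and Gm23935 covariate fits over all E16.5 libraries hold wildtype libraries, so their counts are descriptions. Leaving out 1 library gave 33 (without deficient replicate 7) to 74 (without deficient replicate 1). The 8 red blood cell markers summed to 4949 CPM in deficient replicate 1 and to 46.8 to 1112 CPM in the other deficient libraries. In heterozygous replicate 1, of the same litter, they summed to 4404 CPM. Their part in the number of calls was not tested. Without deficient replicate 8, the highest in Taf4b of its group, 58 were called, against 4555 of 24244 genes. Without heterozygous replicate 5, the lowest of its group, 40 were called, against 3009 of 24300 genes. Other filters, scaling and tests gave 36 to 63. The remaining settings are given without a share over all genes. On log2(TPM + 1) limma called 56, of which 4 were higher and 52 lower, against 15 and 36 on counts. Without a share over all genes this split is not a result about the members. TPM are scaled per library, and the part of the abundant Gm23935 in the split was not tested. Of the changes of named members, 24 values that leave out a library (197 did not change their call) and 62 under other settings (107 did not) no longer passed the threshold, and none reversed. These settings reuse libraries on which the members were called.

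At E14.5 every setting run gave 0 members. Between ages in deficient cells leaving out 1 library gave 152 to 162, and other settings 149 to 162. These counts are given without a share over all genes. Ranking by E14.5 TPM, whose scale differs from that at E16.5, kept 67 members, and leaving out 1 wildtype library kept 195 to 199.

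With a replicate block 44 members were called between genotypes at E16.5 (9 higher and 35 lower), 0 at E14.5 and 156 between ages. The share over all genes is not given for these fits, so their counts cannot be set against a background. Same-numbered libraries correlated at -0.05 to 0.604 at E16.5 and -0.241 to 0.472 at E14.5, and not every library correlated best with its own number, so the number is not used to pair them.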

Other observations

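The gene type that chose the members was missing for 382 genes, which the rule could not judge. The highest of them, Gm26825, stood at 585 ± 127 TPM (SD, n = 7) in E16.5 wildtype libraries, with 434 in the lowest and 730 in the highest library, above Gm10076 and below Gm15564 among the members. AC149090.1 stood at 54.6 ± 7.08 TPM, Hgs at 45.5 ± 3.61 TPM and Gm340 at 35.7 ± 4.77 TPM. Mean counts in the same libraries were 146 for Gm26825, 2858 for AC149090.1, 0 for Hgs and 2205 for Gm340. The order of these genes by TPM is thus not their order by counts.

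Between ages Gm26917 changed by 0.67 ± 0.21 on the log2 scale in deficient libraries (adjusted p = 0.00702 by edgeR). The wildtype value of -0.53 is a description, since wildtype levels chose the members, and it covers libraries that differ with the Gm23935 level. The 4 E16.5 wildtype libraries with low Gm23935 stood at 865 to 1069 TPM of Gm26917 and the 3 with high Gm23935 at 1639 to 2046 TPM, while all 8 deficient libraries had high Gm23935. The difference between the genotypes in this change was not tested.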
